A study of Mus musculus with 14 samples.

Results

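The 8 genes studied here are commonly used as markers of cardiac fibroblasts: Meox1, Pi16, Mfap5, Pdgfra, Tcf21, Dcn, Ddr2 and Gsn. They are 8 of the 17063 gene symbols to which the 3 tables assign regions, and every region whose assigned gene list held 1 of them was used, in the promoter or away from it. This gave 53 of 49314 regions in the table for 0% fat, 47 of 38150 in the H3K9ac table and 52 of 58137 in the H3K9Bu table, or 152 of 145601 regions in all. The study profiled acetylation (H3K9ac) and butyrylation (H3K9Bu) of lysine 9 of histone H3 by ChIP-seq in whole hearts of 12-week-old male C57BL/6J mice. Mice received a diet with 0, 10 or 60% fat from 4 days before surgery, which was either transverse aortic constriction (TAC, which makes the left ventricle pump against a raised pressure) or a sham operation, and hearts were taken 1 week later. Each of the 12 libraries came from a pool of 3 hearts. The groups used here were TAC with 0, 10 or 60% fat and sham with 0, 10 or 60% fat, each with 1 library per mark. There were therefore no replicate libraries, no p-values are given, and every interval below covers counting error only.

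Cardiac fibroblasts make and maintain the collagen-rich matrix between cardiomyocytes, and under pressure overload part of them become activated cells that deposit more matrix. Tcf21 encodes a basic helix-loop-helix transcription factor needed to form the fibroblast lineage of the heart, and Meox1 a homeobox transcription factor known from stress-activated cardiac fibroblasts. Pdgfra and Ddr2 encode receptor tyrosine kinases, for platelet-derived growth factor and for fibrillar collagen. Among the secreted products, decorin (Dcn) is a small proteoglycan that binds collagen, Mfap5 is a glycoprotein of elastic microfibrils, and peptidase inhibitor 16 (Pi16) marks fibroblasts of the adventitia. Gelsolin (Gsn) severs and caps actin filaments and is made in a cytoplasmic and a secreted form. Acetylation of H3K9 is a mark of active promoters and enhancers, and butyrylation occupies the same lysine, so that 1 histone tail carries either mark but not both at that position.

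Values are the deposited average signal of a region in a library, in the authors' units of fragment density. Because no scaling between libraries is stated in the sources used here, ratios are given as relative log2 ratios: log2 of the 2 signals, each plus 1, minus the median of that ratio over promoter regions of the same table. That median, as deposited, was 0.21, 0.06 and 0.16 for TAC over sham in H3K9ac with 0, 10 and 60% fat. It was -0.07, -0.86 and -0.35 in H3K9Bu. A region was called higher or lower when it lay at least 1.5-fold from that median. Promoter regions lay within 7500 bases before to 2500 bases after an annotated start, and a gene's promoter below means the strongest of its promoter regions. Levels were compared only among the 4 libraries of 1 table.

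Estimated tags in regions ranged from 2543841 to 9163220 per library. The H3K9Bu library of sham hearts with 10% fat stood apart: 41348 regions were called in it, 21352 of them in no other library of its table, and its median promoter signal was 36.8, against 17.1 to 22.0 in the other 3. With 0% fat, the H3K9ac library of TAC hearts had 2542 regions called in it alone, against 7007 in that of sham hearts. All 10 cardiomyocyte markers had a promoter region in each table. Their median H3K9ac signal lay between percentile 56.0 and percentile 84.5 of all gene promoters in 5 libraries, and at percentile 43.9 after TAC with 60% fat. Of the members, Meox1 after TAC with 60% fat had the highest rank in any H3K9ac library, at percentile 47.6.

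Promoter sequences are shown where the results turn on which start carries the mark: the 3 annotated starts of Gsn, Pi16 as a CpG-poor promoter with signal, and Ddr2 as a start without a region. Each runs from 250 bases before to 50 after the start, is taken from RefSeq (GRCm38.p6, the build called mm10), and is written 5′ to 3′ on the gene's strand with every CpG in capitals. Of the 8 genes, 5 had a sequence; Meox1, Mfap5 and Dcn did not.
Gsn, first start, chr2:35256109-35256408, plus strand: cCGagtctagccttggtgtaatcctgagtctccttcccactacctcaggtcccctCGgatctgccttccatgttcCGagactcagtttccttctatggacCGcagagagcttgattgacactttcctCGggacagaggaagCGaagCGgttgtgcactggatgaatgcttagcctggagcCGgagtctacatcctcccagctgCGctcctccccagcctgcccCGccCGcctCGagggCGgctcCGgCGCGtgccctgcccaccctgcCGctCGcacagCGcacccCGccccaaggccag
Gsn, second start, chr2:35266494-35266793, plus strand: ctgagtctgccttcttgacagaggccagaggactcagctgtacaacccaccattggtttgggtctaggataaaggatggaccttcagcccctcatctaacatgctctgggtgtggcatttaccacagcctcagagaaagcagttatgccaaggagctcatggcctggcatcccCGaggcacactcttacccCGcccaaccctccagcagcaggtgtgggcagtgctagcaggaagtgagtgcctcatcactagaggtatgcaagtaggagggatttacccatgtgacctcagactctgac
Gsn, the third start, chr2:35282130-35282429, plus strand: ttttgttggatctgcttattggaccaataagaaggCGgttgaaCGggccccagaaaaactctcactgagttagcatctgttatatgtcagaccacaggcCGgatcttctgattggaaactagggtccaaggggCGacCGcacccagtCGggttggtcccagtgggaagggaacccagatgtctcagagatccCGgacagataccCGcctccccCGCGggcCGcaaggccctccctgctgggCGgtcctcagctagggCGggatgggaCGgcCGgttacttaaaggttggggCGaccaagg
Pi16, chr17:29318632-29318931, plus strand: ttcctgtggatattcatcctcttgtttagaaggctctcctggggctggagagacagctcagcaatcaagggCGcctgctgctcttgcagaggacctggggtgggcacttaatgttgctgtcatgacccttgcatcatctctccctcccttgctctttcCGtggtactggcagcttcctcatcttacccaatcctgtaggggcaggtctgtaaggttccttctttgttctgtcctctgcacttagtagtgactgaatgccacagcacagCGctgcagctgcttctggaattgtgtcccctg
Ddr2, chr1:170088895-170089194, minus strand: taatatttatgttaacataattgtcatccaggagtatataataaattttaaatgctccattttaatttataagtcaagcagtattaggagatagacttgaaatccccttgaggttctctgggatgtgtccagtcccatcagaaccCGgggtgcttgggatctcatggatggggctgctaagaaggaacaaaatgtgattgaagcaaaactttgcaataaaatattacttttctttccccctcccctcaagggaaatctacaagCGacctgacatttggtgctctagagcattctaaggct
The first Gsn start held 20 CpGs, the second 2 and the third 16. Pi16 held 3, Pdgfra 5, Tcf21 8 and Ddr2 2, beside a median of 7 over 32851 promoters. The GC box GGGCGG occurred 3, 1 and 2 times at the Gsn starts and in none of the other 4 promoters, and 35.7% of all promoters held it. All motifs were searched on both strands. The Ddr2 window held the TATA box TATAAA once, on the opposite strand, where the printed strand reads TTTATA (13.6% of all promoters held it on either strand), and the E-box CAGCTG stood once each at Pi16 and at the first and second Gsn starts (16.3%). TGANTCA and GGAATG had no match in these windows, where 7.81 and 14.7% of all promoters held them. These letters are descriptions of the windows and not measured binding sites.

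By average signal, which is a density per length, the members' promoters stood close together. After TAC with 0% fat the H3K9ac order was Meox1 (55.7), Gsn at its first start (54.9), Pdgfra (42.8), Dcn (41.4), Mfap5 (40.5), Tcf21 (39.4) and Pi16 (38.0). After sham it was Meox1 (42.1), Pdgfra (38.9), Gsn (37.7), Dcn (34.3), Tcf21 (33.2), Pi16 (29.8) and Mfap5 (26.9). With 1 library per group there is no spread between samples by which neighbours in these orders could be told apart.

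The comparison of TAC with sham hearts asks how pressure overload moved each mark. In H3K9ac the Meox1 promoter was higher after TAC with every diet, and Mfap5, Pi16 and the first start of Gsn also had higher relative signals with every diet. Pdgfra and Tcf21 lay close to the promoter median, and Dcn was lower with 10 and 60% fat. Inside Gsn, in contrast to its first start, the mean acetylation over all regions from the third start onward was lower after TAC with all 3 diets, although with 0% fat the region over that start was not. Apart from the Pdgfra promoter with 0% fat, these promoter ratios kept their sign in H3K9ac under every scaling tried. In whole tissue, fewer cells of a type and less signal per cell cannot be told apart.

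Meox1 (chr11:101877510-101894354, minus strand) had 1 promoter region of 3664 bases in the 0% fat table, and its H3K9ac signal was 55.7 after TAC and 42.1 after sham surgery with 0% fat, 42.0 and 28.2 with 10% fat, and 60.1 and 33.5 with 60% fat. The TAC library was the higher one with each diet. Relative log2 ratios were 0.18 (95% interval 0.05 to 0.34), 0.50 (0.35 to 0.69) and 0.67 (0.54 to 0.83). With 60% fat this was the only member promoter past 1.5-fold, where 3.41% of 14590 gene promoters were called higher. With 0 and 10% fat no member promoter was called higher, against backgrounds of 7.28% and 1.26%, and none was called lower with any diet (3.28%, 0.98% and 2.02% with 0, 10 and 60% fat). These counts take 1 promoter region per gene. Over all their promoter regions, weaker ones included, 3 of 19 were called higher and 0 lower with 0% fat, where 7.28% and 23% of all promoter regions were. With 10% fat 2 of 20 were called higher and 2 lower (2.75% and 3.93%), and with 60% fat 2 and 0 (5.02% and 10.1%).

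Acetylation inside Meox1 was also higher after TAC in the H3K9ac table. The region centred 8038 bases after the start had signals of 23.2 after TAC and 14.4 after sham with 10% fat (relative log2 ratio 0.60, 0.30 to 0.96). With 60% fat it had 31.2 and 18.2 (0.59, 0.33 to 0.91). At 4991 bases the TAC and sham signals were 19.5 and 11.6 with 10% fat (0.65, 0.20 to 1.18), and 27.4 and 13.1 with 60% fat (0.85, 0.46 to 1.34). A short upstream region at -3102 bases stood at 28.4 after TAC and 7.5 after sham with 60% fat (1.63, 0.73 to 2.94), and at 14.9 and 17.5 with 10% fat. Summed over all its regions, Meox1 was higher by 0.51 (0.41 to 0.66) with 10% fat and by 0.62 (0.53 to 0.76) with 60% fat. With 0% fat the sum was 0.12 (0.02 to 0.24), and 1 region of 298 bases at 14198 bases went the other way, with 8.3 after TAC and 35.9 after sham (-2.19, -3.43 to -1.37).

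**Figure D1:**
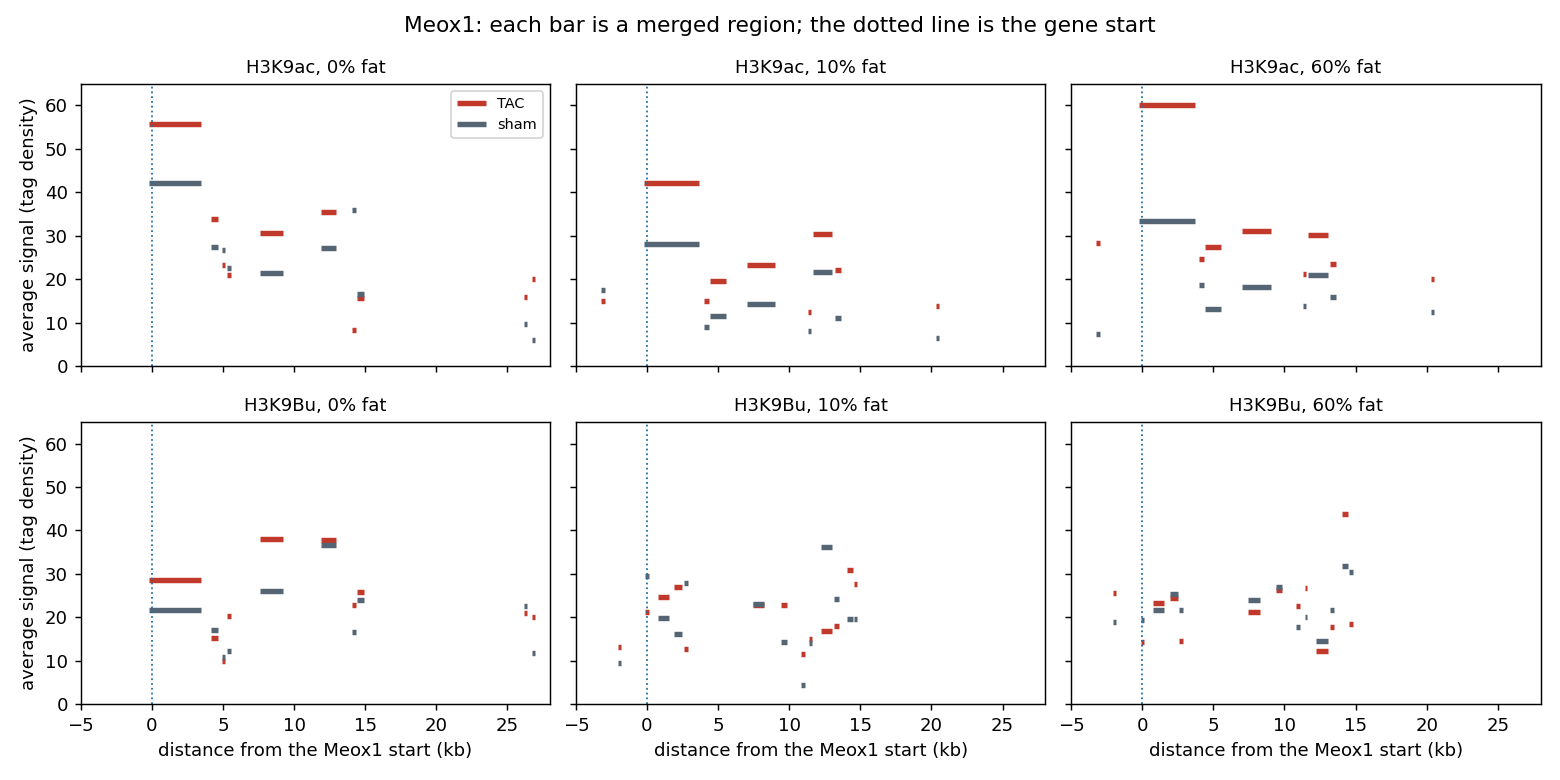
Average signal of each merged region along Meox1 against its distance from the gene start in kb, for H3K9ac (top) and H3K9Bu (bottom) with each diet; a bar spans the region, red after TAC and grey after sham surgery, 1 library each. In H3K9ac with 10 and 60% fat the TAC bars stand above the sham bars at the start (42.0 and 28.2 with 10% fat, 60.1 and 33.5 with 60% fat) and in the gene body.

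Tcf21 (chr10:22817263-22820143), the other transcription factor, differed little at its promoter. Its H3K9ac signals were 39.4 after TAC and 33.2 after sham with 0% fat, 37.9 and 38.4 with 10% fat, and 38.8 and 33.1 with 60% fat. The relative log2 ratios of 0.03, -0.08 and 0.06 all had intervals that included 0. Of its neighbouring regions, 1 at 2398 bases was lower after TAC with 10% fat (22.1 and 32.9, -0.61, -1.24 to -0.06) and 1 at 6307 bases was higher (23.2 and 13, 0.73, 0.15 to 1.47). Both had intervals that included 0 with 60% fat.

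Of the receptors, Pdgfra (chr5:75151322-75198206) held several acetylated regions around its start, from -9103 to 4398 bases in the 0% fat table. The promoter region had signals of 42.8 after TAC and 38.9 after sham with 0% fat, 40.8 and 42.1 with 10% fat, and 45.3 and 38.9 with 60% fat. Its relative log2 ratios were -0.07, -0.10 and 0.05, with intervals that included 0, and the first was 0.14 without centring. With 0% fat the region at -3713 bases was higher after TAC (34.8 and 21.6, 0.45, 0.05 to 0.91). With 60% fat the region at 4042 bases had 43.5 and 45.2 (-0.21).

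Ddr2 had no region in its promoter window in any table. Its assigned regions lay in the gene body, 31051 to 32889 bases from the tables' start, and about 119 kb away at the promoters of Hsd17b7 and 3110045C21Rik, which share those regions. The body region had 9.7 after TAC and 19.9 after sham with 10% fat (-1.03, -2.19 to -0.11), but 13.6 and 7.0 with 60% fat (0.70, -0.39 to 2.18). The RefSeq start, whose sequence is given above, lies inside the gene interval of chr1:169972307-170110836. No statement on acetylation of the Ddr2 promoter can be made from these tables.

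Mfap5 (chr6:122513584-122529290) had a similar difference at its promoter with each diet. Signals were 40.5 after TAC and 26.9 after sham with 0% fat, 31.0 and 24.1 with 10% fat, and 39.9 and 27.6 with 60% fat. All 3 TAC libraries exceeded their sham counterparts, with relative log2 ratios of 0.36 (0.12 to 0.63), 0.30 (0.02 to 0.59) and 0.36 (0.11 to 0.64). Pi16 (chr17:29318796-29328903) had 38.0 and 29.8 with 0% fat, 38.3 and 30.7 with 10% fat, and 40.1 and 28.7 with 60% fat, again TAC before sham. Its ratios were 0.13 (-0.12 to 0.41), 0.25 (-0.03 to 0.55) and 0.31 (0.03 to 0.61), so that the interval excluded 0 with 60% fat only. Upstream of Pi16, a region at -3286 bases had 20.6 after TAC and 6.7 after sham with 10% fat (1.43, 0.66 to 2.55). With 60% fat it had 18.2 and 11.9 (0.42, -0.32 to 1.23). That region is also assigned to Gm10045.

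Dcn (chr10:97479500-97518163) had values of the other sign in 2 of the 3 diets. Its promoter region had signals of 41.4 after TAC and 34.3 after sham with 0% fat, a relative log2 ratio of 0.05 (-0.19 to 0.31). With 10% fat it had 37.5 and 44.1 (-0.29, -0.43 to -0.15), and with 60% fat 35.2 and 39.5 (-0.32, -0.48 to -0.18). The TAC library was thus the lower one with both of these diets. A gene-body region at 5474 bases had 12.3 after TAC and 21.0 after sham with 60% fat (-0.89, -1.29 to -0.57), and 16.9 and 17.3 with 10% fat. The Dcn promoter region in the H3K9ac table is 4442 bases long and reaches further into the gene than the 1638 bases of the 0% fat table.

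**Figure D2:**
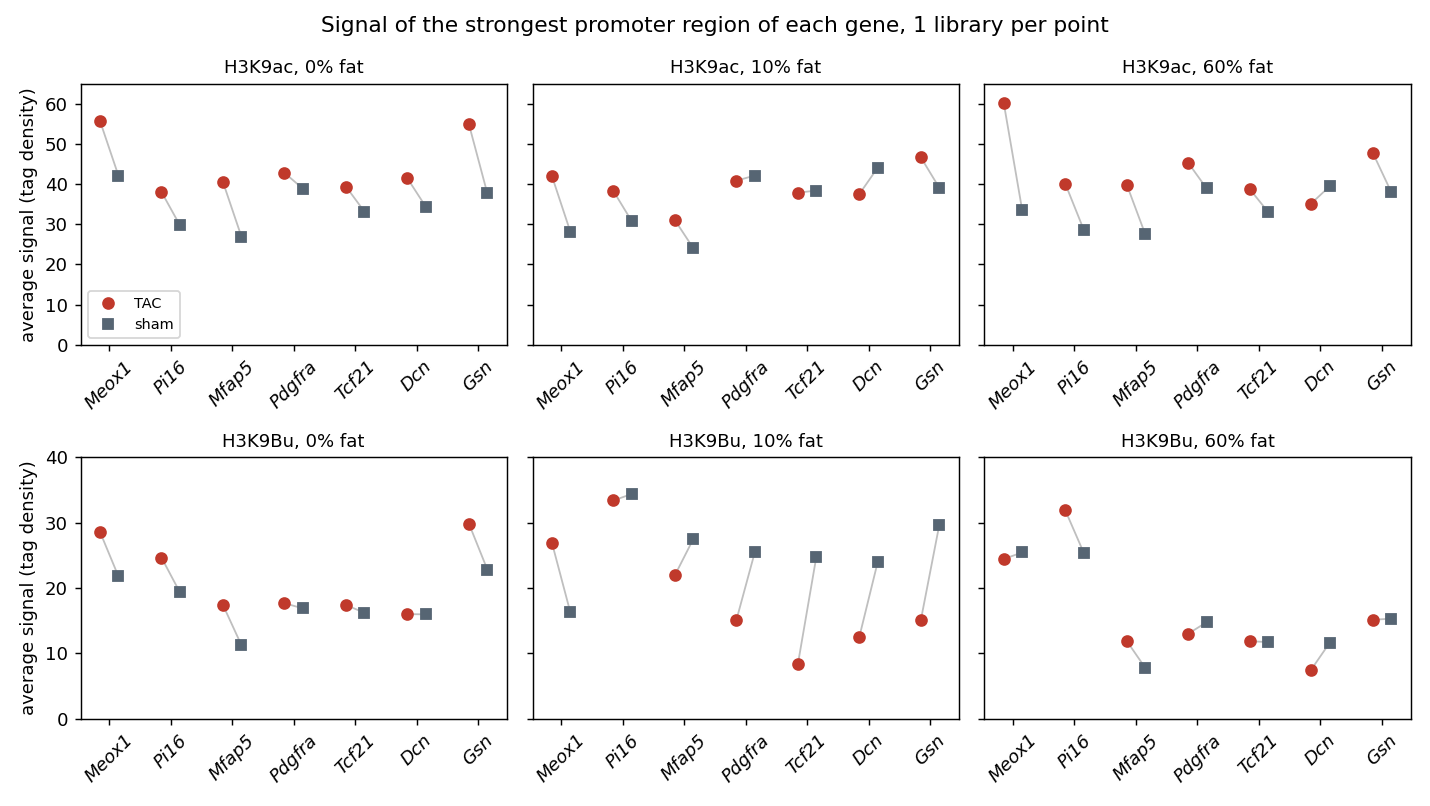
Average signal of the strongest promoter region of the 7 members with such a region, for H3K9ac (top) and H3K9Bu (bottom) with each diet, after TAC (red circles) and after sham surgery (grey squares), 1 library per point. Meox1 and Mfap5 have the TAC point above the sham point in all 3 H3K9ac panels, and with 10% fat the sham points of most members lie high in H3K9Bu.

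Gsn (chr2:35256359-35307902) had unlike values along its length. RefSeq places its 3 starts at 0, 10385 and 26021 bases from the first. The region at the first start, whose CpG-rich window is printed above, had H3K9ac signals of 54.9 after TAC and 37.7 after sham with 0% fat (relative log2 ratio 0.32, 0.06 to 0.61). With 10% fat it had 46.7 and 39.1 (0.19, -0.07 to 0.48), and with 60% fat 47.8 and 38.1 (0.16, -0.10 to 0.44). From the third start onward the mean signal over regions was 16.4 after TAC and 28.8 after sham with 0% fat (-0.99, -1.24 to -0.81). It was 23.8 and 28.8 with 10% fat (-0.32, -0.51 to -0.15), and 19.7 and 28.6 with 60% fat (-0.67, -0.89 to -0.50). Between these parts the mean was also lower after TAC with 0% fat (20.5 and 23.4, -0.40, -0.64 to -0.17) and with 10% fat (20.3 and 28.6, -0.53, -0.79 to -0.31), and with 60% fat it was 23.5 and 24.6 (-0.22, -0.47 to 0.01). The gene was divided in this way after its values were seen, so these figures are a description.

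With 0% fat, the region at 26115 bases, over the third start of Gsn, had 38.8 after TAC and 26.1 after sham (0.35, -0.12 to 0.88). The next regions were lower after TAC, with 15.6 and 31.0 at 27485 bases (-1.16), 12.6 and 27.0 at 28461 bases (-1.25) and 9.8 and 30.5 at 29605 bases (-1.76, -2.35 to -1.39). The sham library of these ratios is the one with 7007 regions of its own, and 29.4% of all 42063 regions with a gene were at least 1.5-fold lower in that comparison. With 10 and 60% fat, where 7.54 and 14.5% of 33350 regions were lower, the parts past the third start still had negative ratios. Under no centring, lowess centring and centring within region class, each of these parts kept its sign in H3K9ac.

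**Figure D3:**
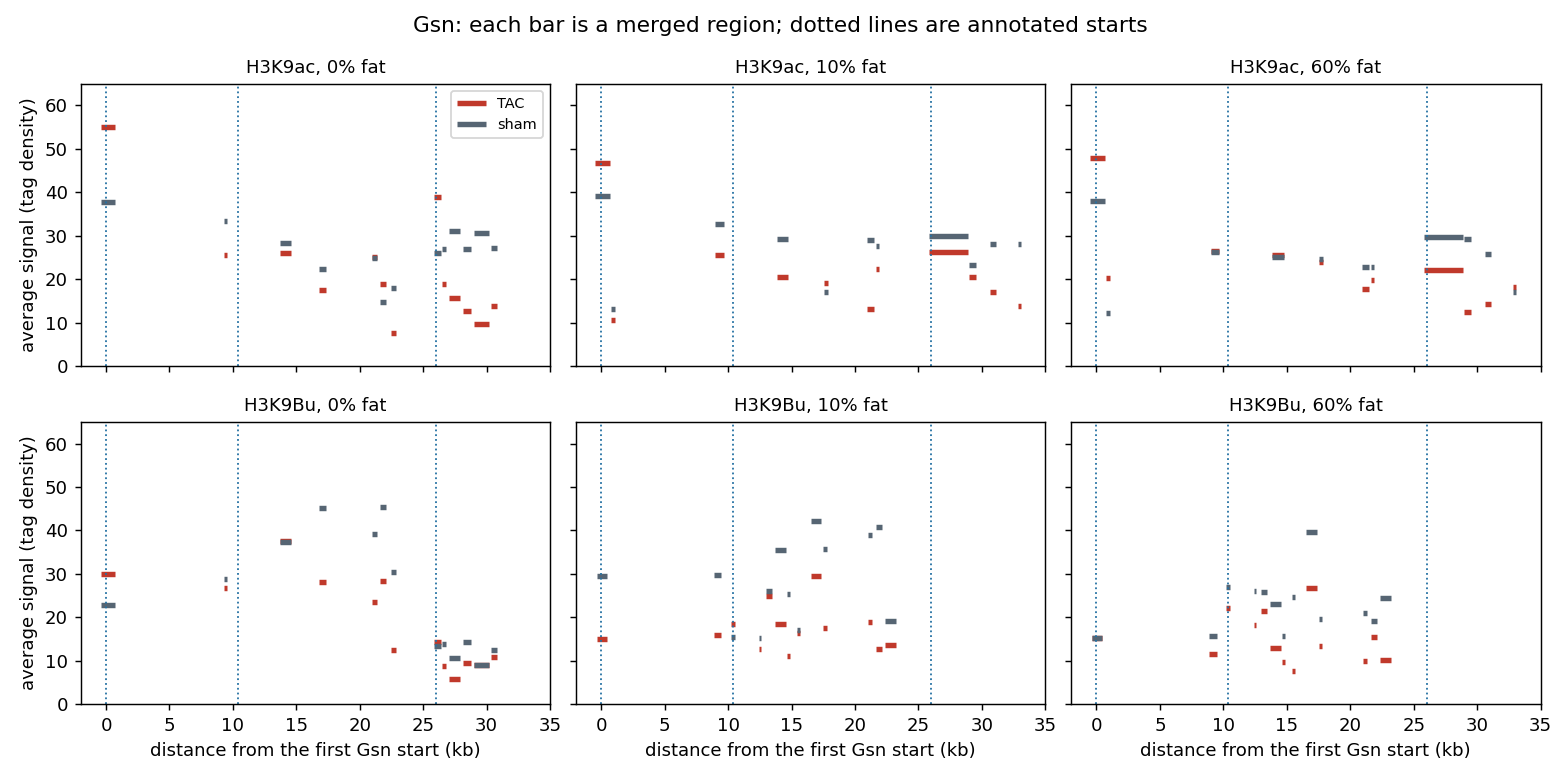
Average signal of each merged region along Gsn against its distance from the first start in kb, after TAC (red) and after sham surgery (grey), 1 library each; dotted lines mark the 3 annotated starts, with H3K9ac on top and H3K9Bu below. At the first start the TAC bar is the higher one in H3K9ac (54.9 and 37.7 with 0% fat), and past the third start the sham bars are mostly the higher ones in H3K9ac.

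Counted over all member regions, TAC over sham in H3K9ac gave 6 regions called higher and 10 lower of 53 with 0% fat, where 7.72% and 29.4% of all regions with a gene were so called. With 10% fat the counts were 9 and 6 of 47 (3.4% and 7.54%), and with 60% fat 6 and 3 of 47 (6.59% and 14.5%). Of the members' regions, 40 of 53, 31 of 47 and 32 of 52 passed the filter on low signal. The median relative log2 ratio of member regions was 0.05, 0.00 and 0.11 with 0, 10 and 60% fat, beside -0.07, -0.02 and -0.02 over all regions with a gene that passed the filter. With 0% fat the share of member regions called lower was below that of all regions with a gene, and with 10% fat both shares were above it.

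**Figure D4:**
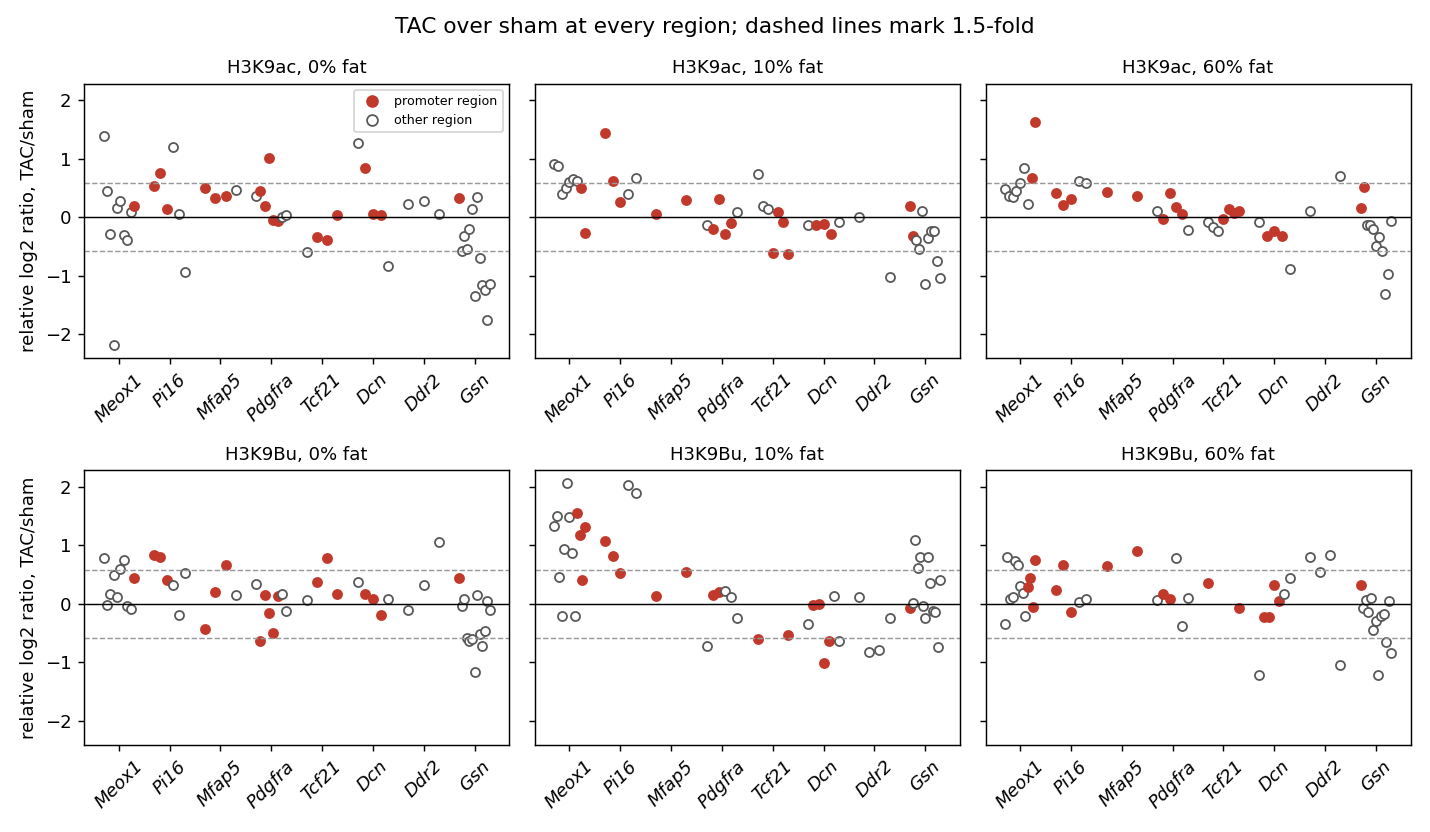
Relative log2 ratio of TAC over sham for every member region, by gene, diet and mark; filled points are promoter regions, open points are other regions, and dashed lines mark 1.5-fold. Meox1 points lie mostly above 0 and the Gsn points outside its promoter mostly below 0 in H3K9ac.

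Other genes of fibroblasts were read from lists beside the members. Of 20 other fibroblast markers, 18, 14 and 17 had a positive relative log2 ratio of H3K9ac at the promoter with 0, 10 and 60% fat, with medians of 0.44, 0.05 and 0.25. Over all gene promoters the shares above 0 were 57.1, 50.8 and 51.6%, and the medians 0.05, 0.00 and 0.01. Of these 20 promoters, 16, 18 and 18 passed the filter on low signal. Their summed promoter signal was 879.9 after TAC and 576 after sham with 0% fat, 719 and 666 with 10% fat, and 807 and 619.8 with 60% fat. Scara5, a ferritin receptor of fibroblasts, was the lowest of this list with 60% fat, with 13.7 after TAC and 31.6 after sham (-1.31, -1.64 to -1.11), and with 10% fat, with 20.5 and 33.1 (-0.72, -0.98 to -0.52). Thy1, a surface glycoprotein, was the highest with 60% fat, at 24.1 and 11 (0.90, 0.43 to 1.54). Of 20 genes of fibroblast activation, 17 had a promoter region and Comp, Thbs4 and Fmod had none. Among them 10, 5 and 10 were called higher with 0, 10 and 60% fat, where 7.28, 1.26 and 3.41% of all gene promoters were, and the medians were 0.65, 0.29 and 0.68. Only 13, 12 and 12 of the 17 passed the filter. Timp1, an inhibitor of matrix metalloproteinases, had 30.0 after TAC and 5.42 after sham with 0% fat (2.06, 1.20 to 3.34), and Cilp, a secreted matrix protein, 22.8 and 8.25 with 60% fat (1.20, 0.51 to 2.13). The Timp1 region is assigned to 3 genes, so its signal cannot be given to Timp1 alone. The Meox1 ratio lay near the median of the activation list with 60% fat only, below it with 0% fat and above it with 10% fat. Those of Pdgfra, Tcf21 and Dcn lay below the medians of both lists in each H3K9ac comparison.

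Markers of other cells moved as well. Of 10 macrophage markers, 8 had a promoter region, and Adgre1 and Itgam had none. Of the 8, 7, 0 and 2 were called higher in H3K9ac with 0, 10 and 60% fat. Of all gene promoters, 7.28, 1.26 and 3.41% were so called. Cx3cr1 was called lower with 60% fat, where 2.02% of gene promoters were. It had 10.8 after TAC and 18.4 after sham (-0.88, -1.98 to 0.02). Only 5, 7 and 7 of the 8 were past the filter. Their summed promoter signal was 393 after TAC and 215 after sham with 0% fat, 314 and 319.6 with 10% fat, and 326 and 254 with 60% fat. The 10 cardiomyocyte markers had medians of -0.23, -0.34 and -0.44, which were negative under each scaling tried. Their summed promoter signal as deposited was 716 after TAC and 712 after sham with 0% fat, and so not lower after TAC. It was 682 and 809 with 10% fat, and 556 and 708 with 60% fat. Endothelial markers had medians of -0.29, 0.03 and 0.07. Mural cell markers had -0.15, -0.08 and -0.08, and the first and last of these changed sign to 0.06 and 0.08 without centring. With 10% fat the macrophage median was -0.09. The part of these cells in the members' ratios was not tested.

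**Figure D5:**
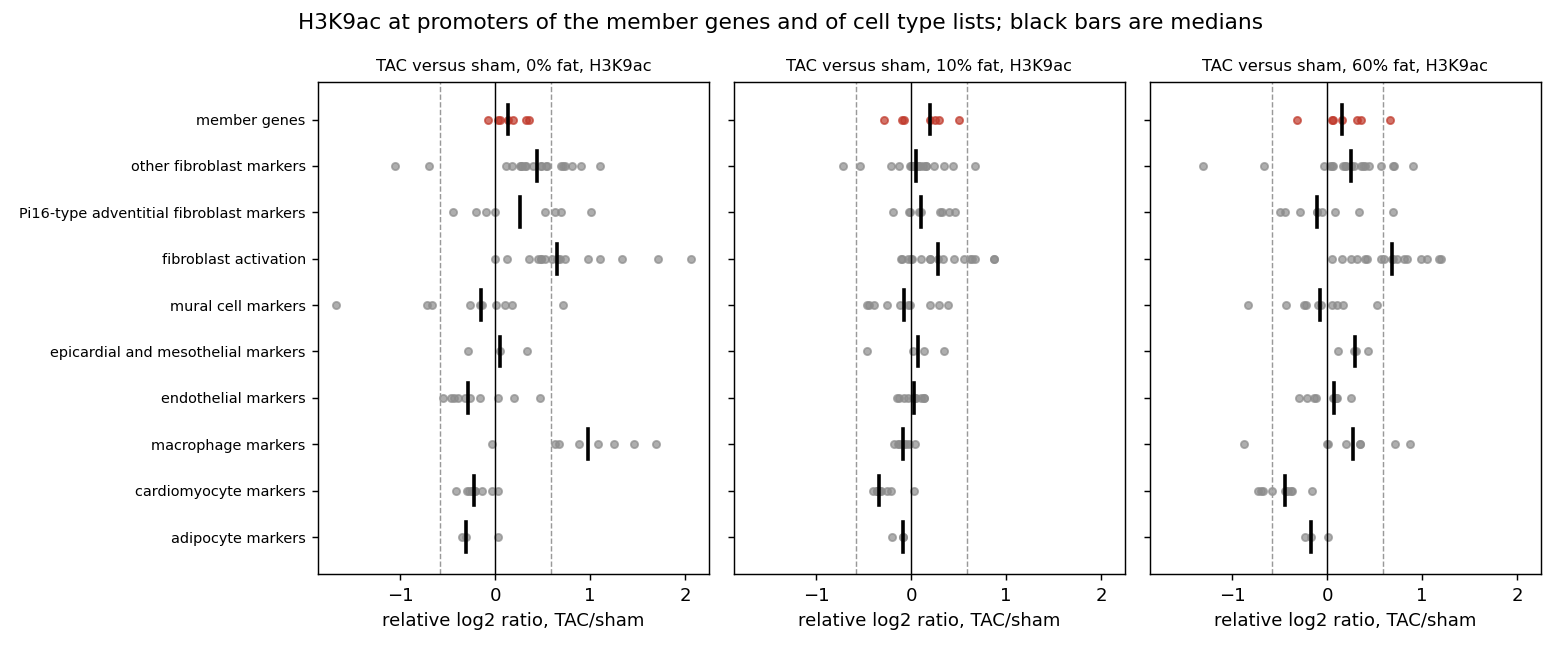
Relative log2 ratio of TAC over sham in H3K9ac at the promoters of the members (red) and of the 9 marker lists (grey), with black bars at the medians, for the 3 diets. The activation list has medians of 0.65, 0.29 and 0.68 with 0, 10 and 60% fat, the members 0.13, 0.19 and 0.16, and the cardiomyocyte list -0.23, -0.34 and -0.44.

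In H3K9Bu with 0% fat, the same 4 promoters were higher after TAC. Mfap5 had signals of 17.4 after TAC and 11.3 after sham (relative log2 ratio 0.66, 0.30 to 1.10), the only member promoter past 1.5-fold, where 3.78% of 14379 gene promoters were called higher and 1.76% lower. Meox1 had 28.6 and 21.8 (0.45, 0.26 to 0.67), Pi16 24.7 and 19.3 (0.41, 0.09 to 0.76), and Gsn at its first start 29.9 and 22.8 (0.44, 0.10 to 0.82). Pdgfra with 17.7 and 16.9, Tcf21 with 17.4 and 16.2 and Dcn with 16.0 and 16.0 had intervals that included 0. Upstream of Pi16, the regions at -3363 and -2321 bases had 23.7 and 13.6 (0.83, 0.28 to 1.51) and 29.3 and 17.2 (0.81, 0.12 to 1.58), again TAC before sham. In the Meox1 gene body, the region at 8405 bases had 38.0 and 26.0 (0.60, 0.35 to 0.90). The Ddr2 body region had 29.7 and 14.4 (1.06, 0.24 to 2.16). Gsn between its starts was lower after TAC, with mean signals of 27.8 and 38.6 (-0.39, -0.60 to -0.21). Of all 53 member regions 8 were called higher and 6 lower, beside 7.64% and 12.6% of regions with a gene. Macrophage markers had a median of 0.73 and cardiomyocyte markers -0.54 in this comparison, and their part was not tested.

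In the H3K9Bu table of 10 and 60% fat the members' starts were covered by shorter regions, such as 548 bases at Meox1, and Mfap5 had its promoter signal at -4669 bases. With 10% fat every H3K9Bu ratio rests on the sham library that stood apart. As deposited, 6 of the 7 member promoters had the lower signal after TAC, and relative to the promoter median 4 were above 0. Meox1 was higher by either reading, with 26.9 after TAC and 16.3 after sham (1.56, 1.00 to 2.19, and 0.69 as deposited). Pi16 had 33.4 and 34.4 and Mfap5 21.9 and 27.5, with relative log2 ratios of 0.82 and 0.55 that turn to -0.04 and -0.31 as deposited. Meox1 and Pi16 were called higher, and Tcf21, under the filter on low signal, lower, where 7.1% and 4.6% of 13332 gene promoters were called higher and lower. Pdgfra had 15.1 and 25.5, Gsn at its first start 15 and 29.6, Dcn 12.5 and 24.0, and Tcf21 8.29 and 24.7. Of the 52 regions 17 were called higher and 8 lower, where 32.7% and 5.26% of regions with a gene were so called. Without that library, the TAC differences in H3K9Bu are those given for 0 and 60% fat.

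With 60% fat, Mfap5 was again measured at -4669 bases, with 11.9 after TAC and 7.78 after sham (0.90, 0.11 to 1.82), and Pi16 at its start with 31.9 and 25.4 (0.66, 0.0026 to 1.36). Meox1 at 2208 bases had 24.4 and 25.4 (0.29, -0.24 to 0.83, and -0.06 as deposited), and at 14253 bases in the gene body 43.8 and 31.8 (0.80, 0.31 to 1.33). Dcn had 7.5 and 11.6 and Tcf21 11.9 and 11.7, both under the filter. Of gene promoters, 3.14% were called higher and 3.18% lower. Gsn between its starts was lower after TAC (15.6 and 24.6, -0.28, -0.50 to -0.13), as with 0% fat. With 10% fat the ratio of this part had the other sign (18.6 after TAC and 30.5 after sham, 0.18, -0.02 to 0.32). That ratio rests on the sham library that stood apart. No H3K9Bu region of this table lay past 23 kb. Over 52 member regions, 10 were called higher and 5 lower (7.64% and 6.54% of regions with a gene).

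The comparison of 60 with 10% fat asks how the diet moved the marks under each surgery, and the promoter median as deposited was 0.05 after TAC and -0.06 after sham in H3K9ac, and -0.33 and -0.89 in H3K9Bu. The Meox1 promoter had more H3K9ac with 60% fat after both surgeries, with 60.1 and 42.0 after TAC (relative log2 ratio 0.46, 0.33 to 0.61) and 33.5 and 28.2 after sham (0.30, 0.14 to 0.49). Mfap5 had 39.9 with 60% fat and 31.0 with 10% fat after TAC (0.30, 0.06 to 0.57), and 27.6 and 24.1 after sham (0.25, -0.05 to 0.55). The other 5 promoters lay between -0.14 and 0.10 after TAC and between -0.15 and 0.02 after sham, with intervals that included 0. No member promoter was called in either direction, where 1.16% and 0.912% of gene promoters were called higher and lower after TAC, and 0.836% and 1.19% after sham. Over all 47 regions, 5 were called higher and 1 lower after TAC (5.51% and 4.58% of regions with a gene), and 6 and 3 after sham (8.64% and 4.13%). The TAC and diet comparisons share libraries, so the Meox1 values in both are not independent. Gsn past the third start had a mean of 19.7 with 60% fat and 23.8 with 10% fat after TAC (-0.31, -0.52 to -0.12), and 28.6 and 28.8 after sham (0.05, -0.12 to 0.22).

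In H3K9Bu after TAC, no member promoter that passed the filter was called between 60 and 10% fat, and Tcf21, under the filter, had 11.9 with 60% fat and 8.29 with 10% fat (0.80, -0.47 to 2.27). Of gene promoters 3.72% were called higher and 5.92% lower. Of all 52 regions 10 were called higher and 2 lower, beside 14.9% and 5.08% of regions with a gene. After sham surgery the ratios again rest on the 10% fat library that stood apart, and 19 regions were called higher and 9 lower, beside 38.1% and 6.76%. Meox1 at 2208 bases had 25.4 with 60% fat and 16.3 with 10% fat (1.5, 0.93 to 2.13). Mfap5 at -4669 bases had 7.78 and 27.5 (-0.81, -1.68 to -0.19). Both kept their direction as deposited, with 0.61 and -1.70, and were the member promoters called, where 8.33% of gene promoters were called higher and 9.94% lower.

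Butyrylation and acetylation could be set side by side in the 0% fat table, where both marks were measured over the same regions. Different antibodies give no common scale, so a ratio says only where a region stands relative to promoters as a whole, whose median ratio as deposited was -0.84 after TAC and -0.56 after sham. After TAC 6 of the 7 member promoters, and after sham all 7, lay on the acetylation side, some with intervals that included 0. This count takes the strongest region of each gene. Over all 19 member promoter regions, 12 lay on the acetylation side and 7 on the butyrylation side after each surgery. Ratios are centred on the median of promoter regions past the filter, so 50% of those lie on the butyrylation side by definition. That share is therefore no measured background for these counts. The share among the strongest promoter regions of all genes is not given here. After TAC, Dcn had 16.0 in H3K9Bu and 41.4 in H3K9ac (relative log2 ratio -0.48, -0.86 to -0.22) and Pdgfra had 17.7 and 42.8 (-0.39, -0.66 to -0.22). Mfap5 had 17.4 and 40.5 (-0.34), Tcf21 17.4 and 39.4 (-0.30), Meox1 28.6 and 55.7 (-0.10), Gsn 29.9 and 54.9 (-0.02) and Pi16 24.7 and 38.0 (0.23, -0.08 to 0.49). None of them was called, where 5.98% of gene promoters were called higher and 1.41% lower. After sham, Mfap5 had 11.3 in H3K9Bu and 26.9 in H3K9ac (-0.63, -1.08 to -0.34), and Pdgfra had 16.9 and 38.9 (-0.60, -0.88 to -0.42). Both were past 1.5-fold, where 9.77% of gene promoters were called higher and 4.58% lower. Dcn had 16.0 and 34.3 (-0.50), Tcf21 16.2 and 33.2 (-0.43) and Meox1 21.8 and 42.1 (-0.36), all with intervals below 0. Gsn and Pi16 had -0.14 and -0.04 with intervals that included 0.

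Away from the starts the balance differed between members. Mfap5 held 2 upstream regions on the butyrylation side. The one at -5283 bases had 24.6 in H3K9Bu and 14.3 in H3K9ac after TAC (1.57), and 35 and 8.3 after sham (2.50, 1.62 to 3.69). At -4595 bases the signals were 28.9 and 18.9 after TAC (1.43) and 26.4 and 12.7 after sham (1.56). Dcn had such a region at -9714 bases, with 30.7 and 22.6 after TAC (1.26) and 24.8 and 7.4 after sham (2.17, 1.18 to 3.55). Gsn between the first and the third start had means of 27.8 in H3K9Bu and 20.5 in H3K9ac after TAC (1.26, 1.05 to 1.51), and 38.6 and 23.4 after sham (1.25, 1.07 to 1.49). From the third start on it had 9.30 and 16.4 after TAC (0.08, -0.27 to 0.30, negative under the other scalings) and 11.6 and 28.8 after sham (-0.68, -0.99 to -0.51). Among members' regions outside promoters the median ratio was 0.74 after TAC and 0.24 after sham, beside 1.13 and 0.98 over all such regions that passed the filter. Of all 53 regions, 23 were called higher and 0 lower after TAC (51.3% and 0.987% of regions with a gene), and 22 and 7 after sham (40.4% and 11.4%).

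Across the 12 libraries, promoter signal was also compared between members, centred on the library and then on the gene's mean within each table. Meox1 and Pi16 had the most alike profiles (Pearson r 0.82), followed by Pdgfra and Dcn (0.65) and Pdgfra and Tcf21 (0.62). Dcn had negative values with Pi16 (-0.45) and Meox1 (-0.35). Only the 0% fat table holds both marks, so the difference between marks enters the profiles there. In that table Pdgfra had centred log2 signals of 0.32 after sham and 0.24 after TAC in H3K9ac, and -0.36 and -0.20 in H3K9Bu. In the same order Dcn had 0.25, 0.30, -0.32 and -0.23, and Tcf21 0.20, 0.23, -0.31 and -0.12. The share of the mark difference in these correlations was not tested. The correlations also rest in part on the H3K9Bu library of sham hearts with 10% fat. Without it, over 11 libraries, Pi16 and Gsn were the most alike (0.78, against 0.49 with it), Meox1 and Pi16 had 0.63, Meox1 and Gsn 0.71 (against 0.29), and Meox1 and Mfap5 0.65 (against 0.25). Dcn then had -0.31 with Pi16 and -0.13 with Meox1, and Pdgfra had 0.72 with Dcn and 0.70 with Tcf21. Of 12948 other genes with a promoter region in all tables, those most like the members' median profile were Fam69b (0.93), Irf5 (0.93), Gm10091 and Lfng (both 0.92, sharing 1 region) and Cxcl16 (0.92). Those most like single members were Kctd17 for Meox1 (0.98), Foxs1 for Pi16 (0.97), Rtkn for Mfap5 (0.95), Slc9a3r1 for Pdgfra (0.97), Lman1 for Tcf21 (0.94), 3110001D03Rik for Dcn (0.96) and Ipo5 for Gsn (0.97). The points share libraries and their depth, and the best of many genes is high by selection, so these values are descriptions over 12 libraries.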

How the data were processed

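Chromatin from pooled hearts was precipitated with antibodies against H3K9ac or H3K9Bu, per the labels' protocols. BWA, SICER and the mm10 build are named in the submitters' processing notes, without versions. The authors deposited 3 tables of merged regions with, for each of 4 libraries, an average and a peak signal, which are fragment densities per the file headers. How libraries were scaled to each other is not given in the sources used here. The 2 pooled input libraries were not used here. Per the file headers, log2 columns hold the authors' ratios, and all 98622, 152600 and 232548 numeric log2 values equalled the log2 ratio of 2 average signals within 1e-06, with 6 error cells. In the authors' deposited maximum tag numbers, 1 tag equalled an average signal of 224 divided by the region length. That relation gave the estimated tags behind exact 95% Clopper-Pearson intervals, which cover counting error only, since independence of the reads is not stated.

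Ratios used a pseudocount of 1 and the median over promoter regions above the 25th percentile of mean signal. The gene named for a promoter is the one whose promoter window holds the region, and the strongest such region stands for it. Gene intervals and promoter sequences are from RefSeq (GRCm38.p6), and 16532 of 17063 symbols were matched. With 1 library per group no test was made across groups. The named genes were the 8 members, the 2 highest and lowest of a list, and the genes of most alike profile. The members and the gene lists were chosen with earlier results of these data known. Scripts were tested on simulated data and ran in Python 3.11.15 with numpy 2.4.6, pandas 2.3.3, scipy 1.17.1, statsmodels 0.14.6 and matplotlib 3.10.9.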

Additional observations from a re-analysis of the deposited data

How the results depend on the processing

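No paired analysis was possible because each group has 1 library, and no replicate could be left out. The median ratio over member regions was recomputed for the 12 comparisons in 132 alternatives: no centring, centring on all regions with a gene, lowess centring (fraction 0.3), the peak in place of the average signal, 5 added in place of 1, unfiltered regions, only regions that were called in each of the 2 libraries, tags summed per gene, the strongest promoter only, and 2 added after seeing the data (centring within region class, and without Gsn and Meox1). It moved by more than the typical half-width of the regions' 95% intervals in 4. For 60 against 10% fat after sham in H3K9Bu it was -0.60 without centring, against 0.29. For H3K9Bu against H3K9ac it was -0.53 without centring and -0.51 with lowess centring after TAC (0.31 as reported), and -0.61 with lowess centring after sham (0.02 as reported). The half-width is that of single regions, so it is a coarse measure for a median over many regions. TAC over sham in H3K9Bu with 10% fat went from 0.14 to -0.72 without centring and was not among the 4. The sign of this median, which mostly lay near 0, was less steady: it was the other one in 36 of the 132, and in 7 of 12 without centring. In those without centring it became -0.72 for TAC over sham in H3K9Bu with 10% fat and -0.26 with 60% fat, -0.17 for 60 against 10% fat after TAC in H3K9Bu, -0.04 for the same after sham in H3K9ac, and -0.53 for H3K9Bu against H3K9ac after sham. Of 1092 alternatives for 156 single values (each member's strongest promoter, regions called for TAC over sham with an interval away from 0, and the region of highest H3K9Bu over H3K9ac), 100 left the interval and 8 called values changed sign. For TAC over sham in H3K9Bu with 10% fat, without centring, Meox1 at 7852 bases became -0.0024, Pi16 at 418 bases -0.041 and Gsn at 13232 bases -0.062. For H3K9Bu over H3K9ac, Ddr2 at 31051 bases after sham became -0.14 (lowess) and -0.28 (within class), and Pdgfra at -9103 bases after TAC became -0.17 without centring and with lowess, and -0.47 within class. The alternatives' own scaling is what differs in these cases. Leaving the sham library out of the profile correlations was also chosen after seeing the data. With 1 pool per group, differences between pools cannot be told apart from those of surgery or diet, and the low H3K9Bu depth leaves wide intervals at Dcn, Tcf21 and Ddr2.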

Other observations

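Genes of adventitial fibroblasts that often accompany Pi16 were read from a separate list of 10. At their promoters the median relative log2 ratio of TAC over sham in H3K9ac was 0.26 over 8 genes with 0% fat, 0.10 over 9 with 10% fat and -0.11 over 9 with 60% fat, and the last was 0.05 without centring. Fn1, which encodes the matrix protein fibronectin, was the highest of them with each diet, with signals of 45.3 after TAC and 18.9 after sham with 0% fat (1.01, 0.77 to 1.33), 31.6 and 21.8 with 10% fat (0.46, 0.19 to 0.77), and 42.3 and 23.0 with 60% fat (0.69, 0.45 to 0.99). Cd248, a membrane glycoprotein of stromal cells, was the lowest with 0% fat, with 36.9 after TAC and 43.5 after sham (-0.44, -0.68 to -0.22). The Fn1 region is assigned to 2 genes, as is that of Cd248. Ly6a, a surface antigen, was the next lowest, with 73.3 and 72.9 (-0.20, -0.34 to -0.07, but 0.01 as deposited), and the lowest with 10% fat, with 69.6 and 76.5 (-0.19, -0.33 to -0.06). With 60% fat Efemp1 (-0.50) and Dact2 (-0.44) were the lowest, with intervals that included 0. Ackr3 had no promoter region in any table.

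Of 10 epicardial and mesothelial markers only 3 had a promoter region with 0% fat and 4 with 10 and 60% fat, and their medians were 0.05, 0.07 and 0.30. Of 6 adipocyte markers 3 had one, with medians of -0.31, -0.09 and -0.17. These were Plin1, Fabp4 and Cidec with 0% fat, and Fabp4, Cidec and Cfd with 10 and 60% fat. The median with 0% fat is the value of Plin1, with low signals of 8.71 after TAC and 9.43 after sham (interval -1.72 to 1.30). Each of these 6 medians kept its sign under every scaling tried.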
